A study of Papio anubis and Macaca mulatta with 6 samples.

Results

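The genes DIRAS3, DLK1, PEG3, PEG10, MEST, PLAGL1, NDN, CDKN1C, NNAT and GRB10 are imprinted in primates or in mice, and the UMI counts of each were read cell by cell in testes from 2 baboons and from 2 rhesus monkeys. They were found by symbol among the genes listed for each species, which are 10 of 34178 baboon and 10 of 21356 rhesus genes, and each symbol matched 1 entry. They were selected on their levels across testis cell classes in these same cells, so their levels and differences are given as a description, with no test.

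The study took unselected testis cells from prepubertal animals at necropsy, after a 2-step enzymatic digestion whose washes lower the number of interstitial cells, and made 10x Genomics 3′ libraries. Baboon 1 gave the libraries 1A and 1B, baboon 2 gave 1 library, rhesus 1 gave 1 library, and rhesus 2 gave 2A and 2B. Neither a treatment nor a genotype set the animals apart in the labels. The design text gives 15 and 20 months for the baboons and newborn and 26 months for the rhesus monkeys, while the study's article gives these ages to the opposite species, so age was not used. With n = 2 animals per species, and with the newer version 3 chemistry used for baboon 2 alone, a difference between animals cannot be told apart from one between ages, chemistries or libraries.

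An imprinted gene is expressed mainly from the copy inherited from one parent, because DNA methylation marks at a control region differ between the maternal and the paternal copy. These marks are erased in primordial germ cells and are set anew in the germ line according to sex, so germ cells and the somatic cells around them differ in the state of these genes. Many imprinted genes act on fetal growth, on progenitor cells and on the placenta, and several are switched off in most tissues after birth. A UMI, which counts 1 captured RNA molecule, carries no parental label here, so the values are total levels and not levels of a parental copy.

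Called cells numbered 23164 for baboons and 26504 for rhesus monkeys, and 13323 and 20837 of them were placed in a class by marker genes that include none of the 10 genes. The germ-like class (DDX4, DAZL, MAEL and 17 other markers) held 199 baboon and 244 rhesus cells. By animal, that was 103 cells in baboon 1, 96 in baboon 2, 212 in rhesus 1 and 32 in rhesus 2. The Sertoli-like class (SOX9, AMH, DHH and others) held 7249 and 4794 cells, and the stroma-like class (DCN, COL1A1, TCF21 and others) held 5291 and 14270. Smaller classes were endothelial-like (278 and 585 cells), myoid-like (105 and 304), pericyte-like (77 and 204), macrophage-like (42 and 191), lymphoid-like (53 and 59) and Leydig-like (19 and 177). The defining markers INSL3 and LHCGR had no UMI in the 8 Leydig-like cells of baboon 1, so no level is described there. Germ-like cells had a median of 3085 UMIs in rhesus 1, against 9280 to 15087.5 in the other libraries, and 18 of the 212 germ-like cells of rhesus 1 were marked as likely doublets.

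Levels are given as CPM, the UMIs of a gene scaled to a fixed common total of UMIs in the sum of a class in an animal, with the mean ± SD over 2 animals. Intervals in the plots are 95% Poisson intervals and cover counting error only. In a class sum, fewer expressing cells and less RNA in each cell cannot be told apart. Levels were not compared between genes or between species, because 3′ end capture depends on each gene model. Free RNA in near-empty droplets of the same library is given beside the results it touches.

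DIRAS3, a small GTPase of the Ras family that restrains growth and is expressed from the paternal copy, had its highest class mean in germ-like cells of both species, apart from a class with 1 UMI. Its germ-like level was 17.9 CPM in baboon 1 (18 UMIs), 11.7 in baboon 2 (14 UMIs), 14.5 in rhesus 1 (14 UMIs) and 31.6 in rhesus 2 (15 UMIs). The mean was 14.8 ± 4.42 CPM in baboons and 23.0 ± 12.0 in rhesus monkeys (SD, n = 2 each). Each of the 6 libraries alone held DIRAS3 in germ-like cells, at 11.7 to 31.6 CPM.

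In Sertoli-like cells, the largest baboon class, DIRAS3 stood at 0.662 ± 0.144 CPM in baboons and 0.744 ± 0.225 in rhesus monkeys (SD, n = 2 each). In stroma-like cells it was 0.801 ± 0.499 and 0.263 ± 0.058. The ranges of the 2 animals in germ-like cells did not overlap those in Sertoli-like or stroma-like cells in either species. Free RNA held 0 to 3.6 CPM of DIRAS3 in the 6 libraries, below the germ-like level in each.

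The endothelial-like class was the exception for DIRAS3. It held 3.08 CPM in baboon 1 (2 UMIs) and 14.5 in baboon 2 (11 UMIs), a range that overlapped the germ-like range. Without baboon 2 the baboon endothelial-like mean of 8.78 fell to 3.08. In rhesus endothelial-like cells DIRAS3 had 2 UMIs in all, 4.54 CPM in rhesus 1 and 0.493 in rhesus 2, and lay below the germ-like range. A single UMI in a macrophage-like cell of baboon 1 gave 31.4 CPM there and 0 in baboon 2, which is no more than 1 molecule in a small class. No DIRAS3 UMI was found in myoid-like, pericyte-like or lymphoid-like baboon cells, nor in Leydig-like, myoid-like or macrophage-like rhesus cells.

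The number of germ-like cells with a DIRAS3 UMI was small. At full depth it was 12 of 103 in baboon 1 (11.7%), 12 of 96 in baboon 2 (12.5%), 13 of 212 in rhesus 1 (6.13%) and 10 of 32 in rhesus 2 (31.3%). With each cell thinned to 1000 UMIs, 2 germ-like cells in every animal kept a DIRAS3 UMI, so the shares could not be ordered between animals at that depth. Among Sertoli-like cells at full depth, the share was 0.188%, 0.735%, 0.272% and 0.0903% in the same order of animals. The median depth of germ-like cells was higher than that of Sertoli-like cells in every library, so the full-depth shares are not at equal depth.

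**Figure D1:**
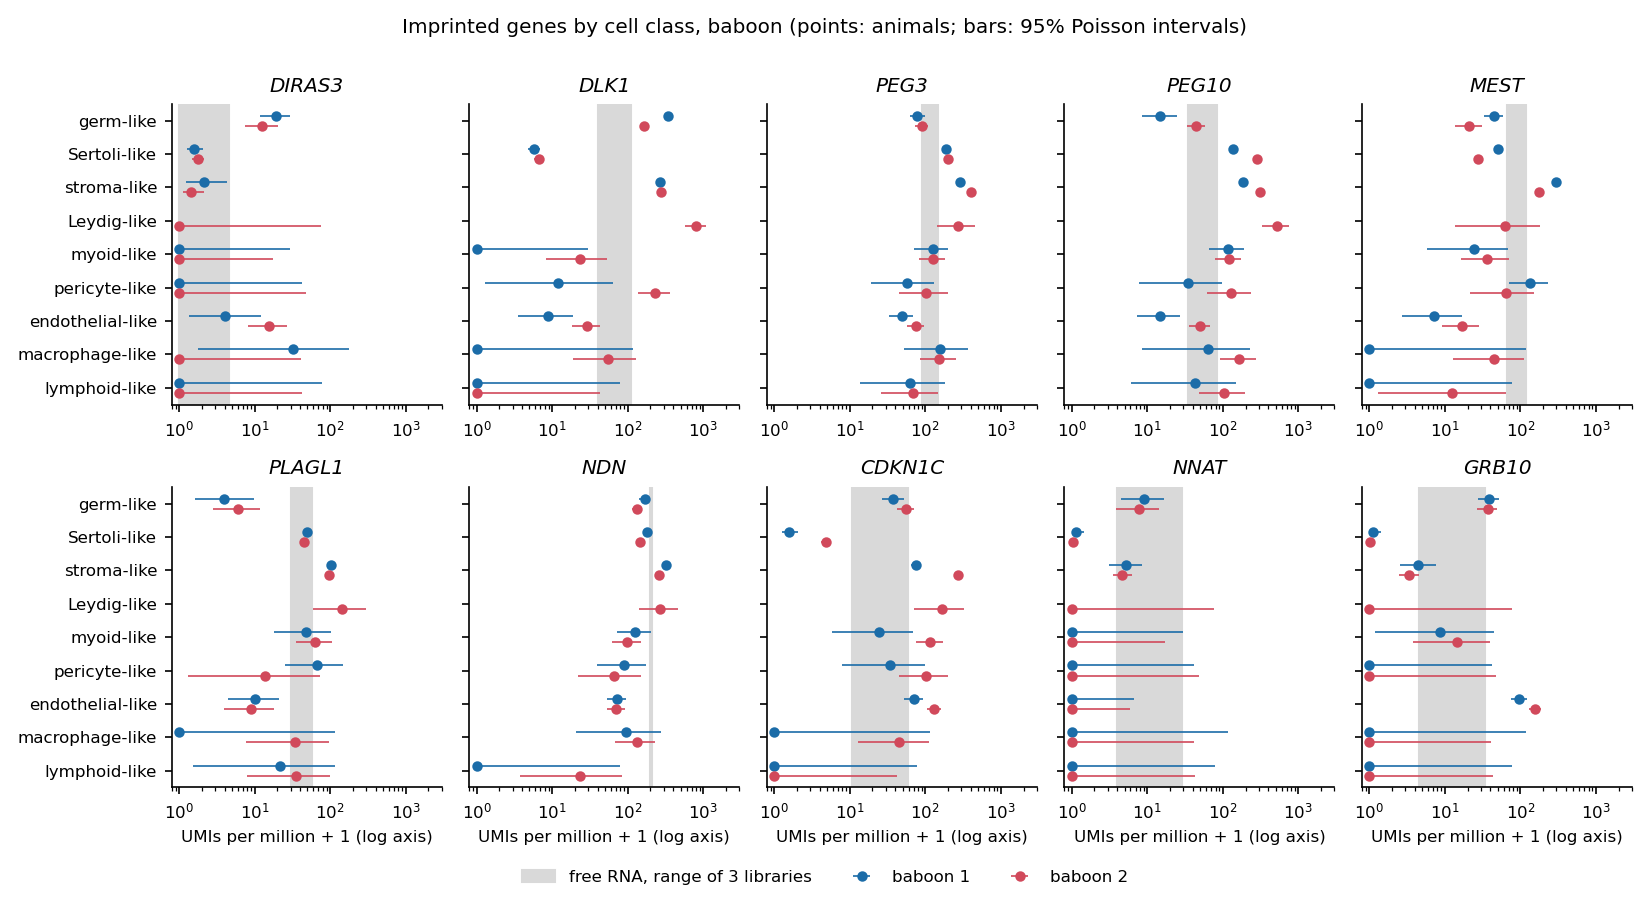
Level of each of the 10 genes in the baboon cell classes, in CPM + 1 on a log axis, 1 point per animal with its 95% Poisson interval, for classes of at least 10 cells, with the range of free RNA over 3 libraries as a grey band. DIRAS3 and NNAT lie above the Sertoli-like and stroma-like classes in germ-like cells, GRB10 stands apart in endothelial-like cells, and most of the others are highest in stroma-like cells.

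In baboon germ-like cells most DIRAS3 UMIs lay in cells with a UMI of PIWIL4. This gene was picked with earlier results on these cells known, so the split is a description. In baboon 1, the 37 germ-like cells with a UMI of PIWIL4, a piRNA-pathway gene of early spermatogonia, held 16 of the 18 DIRAS3 UMIs, at 36.9 CPM, against 3.502 CPM in the 66 cells without one. In baboon 2 the 43 cells with PIWIL4 held 12 of the 14 UMIs, at 16.8 against 4.10 CPM. In both baboons the DIRAS3 level was higher in cells with PIWIL4, and the level in cells without it rests on few UMIs. Cells with a PIWIL4 UMI also had more UMIs, with medians of 12033 and 15868 against 7966 and 6106, and the part of depth in this split was not tested. PIWIL4 was seen in 6 germ-like cells of rhesus 1 and 3 of rhesus 2, which held 1 and 3 DIRAS3 UMIs, too few to compare.

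DLK1, a transmembrane protein with EGF-like repeats related to the Notch ligands and a product of the paternal copy, was high in stroma-like cells of all 4 animals and was also present in germ-like cells. In baboon stroma-like cells it was 267 CPM in baboon 1 and 277 in baboon 2, a mean of 272 ± 7.27 (SD, n = 2). In rhesus stroma-like cells it was 631 in rhesus 1 and 839 in rhesus 2, a mean of 735 ± 147 (SD, n = 2). The 3 rhesus libraries gave 631, 826 and 853 CPM, and the 3 baboon libraries 270.3, 261 and 277.

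Germ-like cells held 341 CPM of DLK1 in baboon 1 (343 UMIs), 165 in baboon 2 (198 UMIs), 301 in rhesus 1 (290 UMIs) and 98.9 in rhesus 2 (47 UMIs). In the baboon, the germ-like mean was 253 ± 125 CPM (SD, n = 2), and the germ-like range overlapped the stroma-like one. Germ-like cells were the higher class in baboon 1 and the lower in baboon 2. For rhesus cells, the germ-like mean of 200 ± 143 CPM (SD, n = 2) lay below stroma-like cells in both animals, and without rhesus 1 it fell to 98.9.

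Stroma markers in germ-like cells stood far lower than DLK1 did, in proportion. The class rule keeps cells with at least as many stroma as germ markers out of the germ-like class, while DLK1 is on no list. A low level of the markers is thus partly set by the rule, here and wherever a marker list stands beside a gene. The level of DLK1 in germ-like cells was 128% of that in stroma-like cells in baboon 1, 59.5% in baboon 2, 47.7% in rhesus 1 and 11.8% in rhesus 2. The summed level of the stroma markers, 12 for baboons and 10 for rhesus monkeys, was 0.843% to 2.34% of that in stroma-like cells in the same animals, with 11 of 12 or at least 9 of 10 markers present and only OGN or LUM at 0. The free RNA of the libraries held 39.96 to 111 CPM of DLK1 in the baboon and 216.5 to 266.6 in the rhesus monkey. In rhesus 2 the germ-like level of 98.9 was below the level in free RNA. Subtracting the estimated free RNA left 364 and 173 CPM in baboon 1 and 2 and 310.0 and 89.5 in rhesus 1 and 2. Here and below, the estimate was taken from the class total as well, and counts under 0 were set to 0. A level can thus rise after subtraction. The estimate rests on marker lists of other classes, so the class rule touches it too.

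Sertoli-like cells, by contrast, had little DLK1. In the baboon the level was 4.73 CPM in baboon 1 and 5.60 in baboon 2, or 1.77% and 2.02% of stroma-like cells, beside 0.699% and 0.924% for the stroma markers. Rhesus Sertoli-like cells held 47.2 and 36.3 CPM, or 7.48% and 4.33% of stroma-like cells, beside 4.10% and 6.26% for the stroma markers. Subtracting free RNA left 19.4 CPM in rhesus 1 and 4.85 in rhesus 2. Endothelial-like cells held 2.89% to 19.4% of the stroma-like DLK1 level in baboon 1, baboon 2 and rhesus 1 and 2.70% in rhesus 2, and the stroma markers 2.31% to 5.70%.

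**Figure D2:**
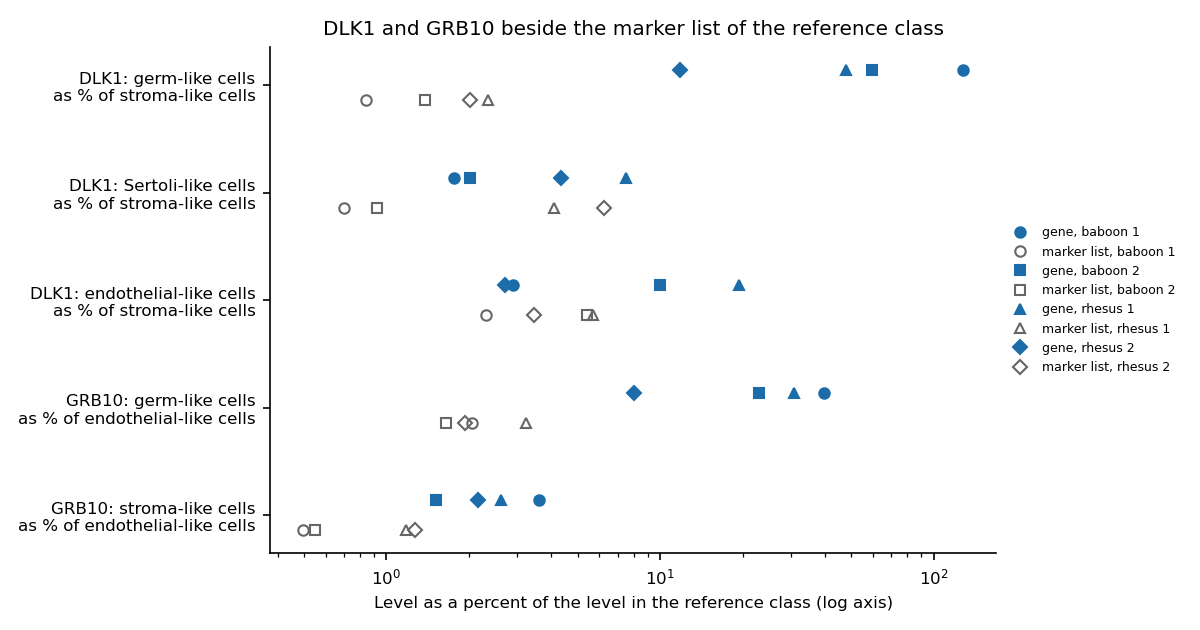
Level of DLK1 or GRB10 in a class as a percent of that in the class where it is high (filled symbols), beside the same ratio for the summed markers of that reference class (open symbols), 1 symbol per animal on a log axis. In germ-like cells DLK1 reached 11.8% to 128% of the stroma-like level while the stroma markers stayed at or under 2.34%. The markers are part of the class rule and the genes are not, so the low marker level is partly set by the rule.

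Shares of cells with a DLK1 UMI at 1000 UMIs per cell followed the levels. Of germ-like cells, 27 of 102 had one in baboon 1 (26.5%, exact 95% interval 18.2 to 36.1%), 11 of 94 in baboon 2 (11.7%, 5.99 to 20.0%), 48 of 197 in rhesus 1 (24.4%, 18.5 to 31.0%) and 1 of 27 in rhesus 2 (3.70%, 0.0937 to 18.97%). Of stroma-like cells it was 18.6% and 18.1% in the baboons and 31.2% and 46.3% in the rhesus monkeys. Of Sertoli-like cells, where little DLK1 was found, it was 0.386% and 0.618% in the baboons and 4.10% and 3.13% in the rhesus monkeys. Without thinning the germ-like shares were 76.7%, 59.4%, 52.4% and 59.4%. At this depth the germ-like share of rhesus 2 rested on 1 cell, and its interval took in the Sertoli-like share. In the other 3 animals the germ-like share was higher than the Sertoli-like one. These intervals run over the cells of 1 animal and cover counting error only.

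Further classes carried DLK1 with large spread. Rhesus myoid-like cells held 627 CPM in rhesus 1 and 168 in rhesus 2, and Leydig-like cells 288 and 153. Free RNA held 217 CPM of DLK1 in rhesus 1, below both of its levels. In 2A and 2B it held 216.5 and 266.6 CPM, above both levels of rhesus 2. The stroma markers in these myoid-like cells summed to 2248 and 1885 CPM, against 11780 and 8837 in stroma-like cells, and their part in the DLK1 level was not tested. Pericyte-like cells held 11.1 CPM in baboon 1 (1 UMI), 230.4 in baboon 2 (18 UMIs) and 545 in rhesus 2. The 11 Leydig-like cells of baboon 2 held 39 DLK1 UMIs, 800 CPM, in too few cells to compare.

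Within stroma-like cells the DLK1 level differed with other genes in the same cell. Cells with a UMI of STC1, a secreted glycoprotein hormone, held 728 CPM of DLK1 against 244 in the rest in baboon 1, 670.2 against 240 in baboon 2, 879 against 598 in rhesus 1 and 1106 against 811 in rhesus 2. DLK1 was thus higher beside STC1 in 4 of 4 animals. STC1 was also among the 10 leading genes of Leydig-like cells in both species, and 5 of 8 Leydig markers were found for baboons. Whether cells of the Leydig kind lie among the stroma-like cells with STC1 was not tested. Cells with STC1 had somewhat more UMIs, with medians of 1422, 2658, 1891 and 1748 against 1270, 1779, 1583 and 1394, and the part of depth was not tested. Cells with a UMI of IGFBP3, which binds insulin-like growth factors, held less DLK1 than the rest in 3 animals: 207 against 434 in baboon 1, 217 against 508 in baboon 2 and 469 against 875 in rhesus 1. In rhesus 2 the order was the other way, at 904 against 828. STC1 and IGFBP3 were picked with earlier results on these cells known.

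**Figure D3:**
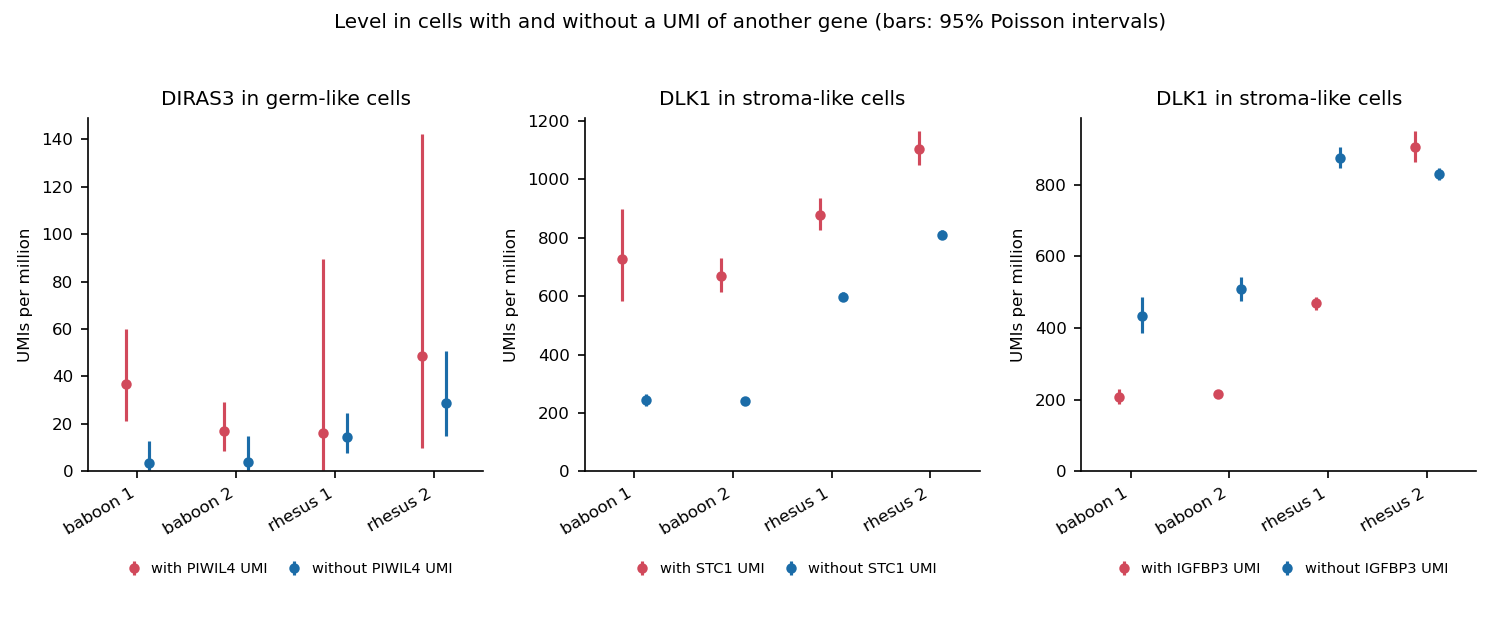
Level of DIRAS3 in germ-like cells with and without a PIWIL4 UMI, and of DLK1 in stroma-like cells with and without a UMI of STC1 or IGFBP3, in CPM for each animal with 95% Poisson intervals. DLK1 is higher in cells with STC1 in all 4 animals and lower in cells with IGFBP3 in 3 of 4.

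GRB10, an adaptor protein that binds the insulin and IGF receptors and whose imprinted expression depends on the tissue, was highest in endothelial-like cells in all 4 animals. There it was 95.6 CPM in baboon 1 (62 UMIs), 155 in baboon 2 (118 UMIs), 132 in rhesus 1 (29 UMIs) and 681 in rhesus 2 (1382 UMIs). The means were 125 ± 42.2 in baboons and 406 ± 388 in rhesus monkeys (SD, n = 2 each), and without rhesus 1 the latter was 681. Its 2 libraries gave 658 and 707 CPM, close to each other, while rhesus 1 has a single library, so a gap between animals and one between libraries cannot be told apart.

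Germ-like cells came next for GRB10, at 37.8 and 35.8 CPM in the baboons (36.8 ± 1.43, SD, n = 2) and 40.5 and 54.7 in the rhesus monkeys (47.6 ± 10.1, SD, n = 2). The germ-like range overlapped neither the endothelial-like range above it nor the myoid-like range below it in either species. The germ-like level was 39.6%, 23.1%, 30.7% and 8.03% of the endothelial-like level, in the order of animals above, while the summed endothelial markers were at 1.649% to 3.23%, with TEK and ROBO4 at 0 in the germ-like sums of all 4 animals. The low level of these endothelial markers is partly set by the class rule as well. In stroma-like cells GRB10 was at 3.46, 2.35, 3.45 and 14.8 CPM, and in Sertoli-like cells at 0.124, 0.0364, 0.903 and 8.34. Free RNA held 64.1 and 72.0 CPM of GRB10 in 2A and 2B, where stroma-like and Sertoli-like levels were also the highest, and 3.6 to 33.2 in the other libraries, so the germ-like level of rhesus 2 was below that of its free RNA. After subtraction of the estimated free RNA, 39.7 and 38.15 CPM were left in baboon and 44.3 and 53.9 in rhesus germ-like cells. Sertoli-like cells of rhesus 2 were then at 0. At 1000 UMIs per cell, 9.85% and 14.8% of baboon and 11.9% and 46.1% of rhesus endothelial-like cells had a GRB10 UMI, against 2.13% to 3.70% of germ-like cells. The germ-like shares rested on 3 of 102, 2 of 94, 6 of 197 and 1 of 27 cells, in the order of animals above. The endothelial-like share of rhesus 1 rested on 5 of 42 cells.

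**Figure D4:**
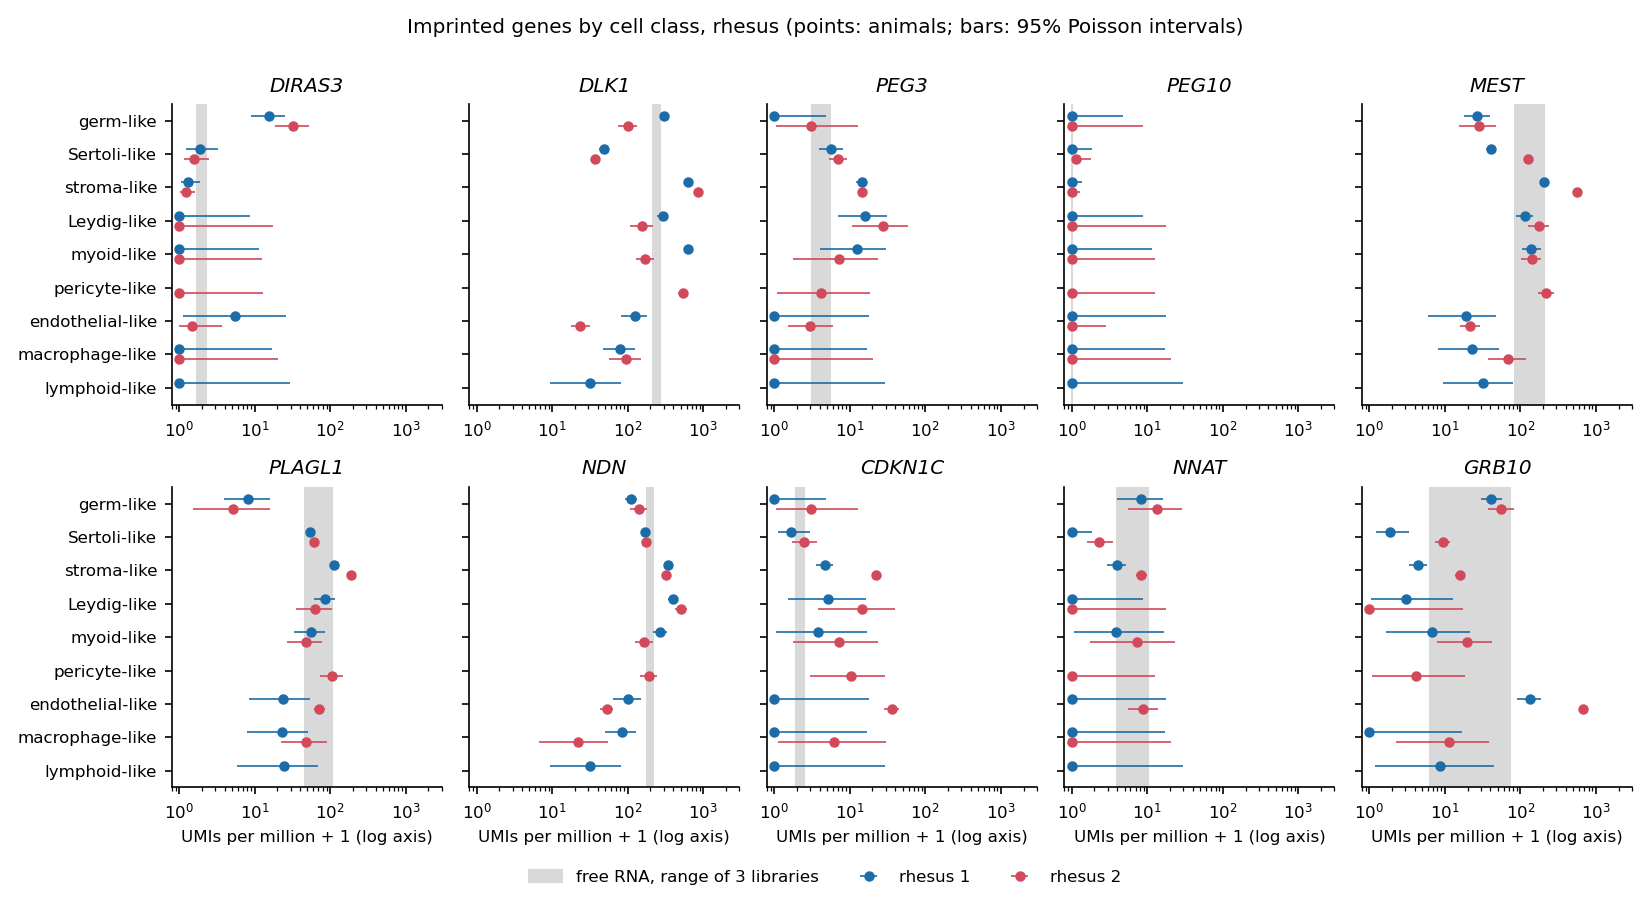
Level of each of the 10 genes in the rhesus cell classes, drawn as for the baboon. DLK1 and MEST are highest in stroma-like cells, GRB10 in endothelial-like cells (132 and 681 CPM), DIRAS3 in germ-like cells, and PEG10 is represented by 1 UMI.

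NNAT, neuronatin, a small membrane proteolipid made from the paternal copy, was low everywhere and had its highest class mean in germ-like cells. It was 7.96 and 6.66 CPM in the baboons (8 UMIs each) and 7.26 and 12.6 in the rhesus monkeys (7 and 6 UMIs). The 8 UMIs of baboon 1 were all in library 1A and the 32 germ-like cells of 1B held 0, so without 1A the baboon germ-like mean of 7.31 fell to 3.33. Stroma-like cells held 4.23 and 3.69 CPM in the baboons, a range below the germ-like one, and 2.94 and 7.38 in the rhesus monkeys, which overlapped it. Baboon Sertoli-like cells held 3 NNAT UMIs in all, at 0.0804 ± 0.0623 CPM (SD, n = 2), and rhesus Sertoli-like cells 9. Free RNA held 3.03, 27.7 and 3.61 CPM of NNAT in the baboon libraries and 3.18, 3.02 and 9.27 in the rhesus libraries. In the baboon its range took in the germ-like level only through 1B, where the 27.7 CPM rested on 5 UMIs. Subtracting the estimated free RNA left 8.48 and 6.88 CPM in baboon and 7.71 and 13.1 in rhesus germ-like cells. With so few UMIs, the part of free RNA was not tested further.

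MEST, a hydrolase-family protein expressed from the paternal copy, was highest in stroma-like cells, at 295 and 176 CPM in the baboons and 207 and 568 in the rhesus monkeys. Its germ-like levels of 43.8, 20.0, 25.9 and 27.4 were 4.82% to 14.8% of those. Sertoli-like levels of 49.6, 26.8, 39.3 and 126 were 15.2% to 22.1% of the stroma-like level, beside 0.699% to 6.26% for the stroma markers. The rhesus 2 stroma-like and Sertoli-like levels were both the higher of that species, and free RNA held 155 and 202 CPM of MEST in 2A and 2B. Free RNA was above the germ-like level in all 6 libraries, at 67.2, 116 and 65.0 CPM in the baboon libraries and 83.4 in rhesus 1, and above the Sertoli-like level in all 4 animals. After subtraction of the estimated free RNA, 40.2 and 16.7 CPM were left in baboon and 19.6 and 17.4 in rhesus germ-like cells. Sertoli-like cells kept 48.0 and 26.1 CPM in the baboons and 32.1 and 117 in the rhesus monkeys. Without rhesus 1 the rhesus Sertoli-like mean rose from 82.5 to 126.

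PLAGL1, a zinc finger transcription factor expressed from the paternal copy, had 103 and 96.3 CPM in baboon stroma-like cells and 113 and 186 in rhesus stroma-like cells. Germ-like cells held 9 PLAGL1 UMIs in each species, at 2.99 and 4.995 CPM in the baboons and 7.26 and 4.21 in the rhesus monkeys. This was the lowest class mean of all in both species, and the range did not overlap the class above it. Sertoli-like levels of 46.4 ± 3.48 and 56.9 ± 5.80 CPM (SD, n = 2 each) lay between. Free RNA held 28.9 to 55.7 CPM of PLAGL1 in the baboon libraries and 45.9 to 105 in the rhesus libraries, above the germ-like level in each. After subtraction of the estimated free RNA, 0.904 and 3.25 CPM were left in baboon and 3.02 and 0 in rhesus germ-like cells.

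NDN, necdin, a growth suppressor gene of the Prader-Willi region expressed from the paternal copy, was present in all the larger classes. In the baboon it was highest in stroma-like cells (316 and 257 CPM), and its Sertoli-like (178 and 143) and germ-like levels (166 and 132) overlapped each other. Rhesus NDN was highest in Leydig-like cells (399 and 512), then stroma-like (342 and 319), Sertoli-like (168 and 175) and germ-like cells (110.0 and 139). Germ-like NDN was 32.1% to 52.6% of the stroma-like level. Free RNA held 177 to 215 CPM of NDN, above both the germ-like and the Sertoli-like level in all 4 animals. After subtraction of the estimated free RNA, 162.4 and 127.5 CPM were left in baboon and 99.85 and 135.3 in rhesus germ-like cells. Sertoli-like cells kept 176.5 and 142.6 CPM in the baboons and 161.9 and 172 in the rhesus monkeys.

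PEG3, a zinc finger protein of the paternal copy, stood at 285 and 398 CPM in baboon stroma-like cells, 186 and 197 in Sertoli-like and 77.6 and 89.1 in germ-like cells, in ranges that did not overlap. Rhesus counts were few, with 318 UMIs in stroma-like cells (13.5 and 13.7 CPM), 62 in Sertoli-like cells and 1 in germ-like cells, and low expression cannot be told apart there from a gene model that misses the 3′ end. PEG10, a retrotransposon-derived gene of the paternal copy, had 181 and 311 CPM in baboon stroma-like cells, 134 and 284 in Sertoli-like cells and 13.9 and 43.3 in germ-like cells. The stroma-like and Sertoli-like ranges overlapped. Baboon 2 was the higher animal in each of these classes, and without it the Sertoli-like mean of 209 fell to 134 and the germ-like mean of 28.6 to 13.9. The germ-like levels of PEG3 and PEG10 were below free RNA in both baboons. Free RNA held 115 and 88.6 CPM of PEG3 in 1A and 1B and 144 in the library of baboon 2, and 79.9, 33.2 and 83.0 CPM of PEG10. After subtraction of the estimated free RNA, baboon germ-like cells kept 75.3 and 85.05 CPM of PEG3 and 9.86 and 40.4 of PEG10. Rhesus PEG10 had 1 UMI in all classed cells, in a Sertoli-like cell, and the same limit holds.

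CDKN1C, the cyclin-dependent kinase inhibitor p57, which is expressed from the maternal copy, was low in Sertoli-like cells and higher in stroma-like and endothelial-like ones. In the baboon the stroma-like level was 74.2 CPM in baboon 1 and 267 in baboon 2, endothelial-like 69.4 and 130.3, germ-like 36.8 and 54.1, and Sertoli-like 0.560 and 3.93. Without baboon 2 the stroma-like mean of 171 fell to 74.2. Free RNA held 9.69 and 22.1 CPM of CDKN1C in 1A and 1B, below the germ-like level, and 57.8 in the library of baboon 2, near it. Rhesus CDKN1C was at 3.65 and 21.4 in stroma-like cells, 0 and 35.0 in endothelial-like cells and 1 UMI in germ-like cells, and here too low expression and the gene model cannot be told apart.

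The differences between classes are summarised by the quasi-likelihood fit of edgeR over all genes, on sums per animal, with 2 sums a side. All 10 genes passed the filter on low counts for germ-like against somatic-like cells in the baboon and 9 of 10 in the rhesus monkey, where PEG10 was left out. DIRAS3 in both species and NNAT in the baboon passed it through the germ-like sums, where they are high. That their differences stand above 0 is thus partly set by the filter. Rhesus PEG3 and CDKN1C passed it through the somatic-like sums, so that their differences stand below 0 is partly set in the same way. In the baboon, the log2 difference (germ-like minus somatic-like, ± SE) was 3.60 ± 0.58 for DIRAS3, 2.80 ± 0.36 for GRB10, 2.68 ± 0.62 for NNAT and 1.71 ± 0.42 for DLK1. It was -0.32 ± 0.70 for CDKN1C, -0.75 ± 0.26 for NDN, -1.66 ± 0.41 for MEST, -1.85 ± 0.25 for PEG3, -3.32 ± 0.57 for PEG10 and -4.24 ± 0.39 for PLAGL1. The rhesus difference was 5.35 ± 0.76 for DIRAS3, 1.10 ± 0.73 for NNAT, 0.10 ± 0.96 for GRB10, -1.45 ± 0.30 for NDN, -1.51 ± 0.50 for DLK1, -3.57 ± 0.45 for MEST, -3.91 ± 1.51 for CDKN1C, -4.13 ± 1.07 for PEG3 and -4.48 ± 0.41 for PLAGL1. The differences of CDKN1C in the baboon and GRB10 in the rhesus monkey were smaller than their SE, and their sign turned under other settings.

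DLK1 thus stood above the somatic-like sum in both baboons and below it in both rhesus monkeys. The somatic-like sum is mostly Sertoli-like in the baboon (81.7% and 72.9% of its UMIs) and mostly stroma-like in the rhesus monkey (62.8% and 57.6%), and DLK1 is high in the latter class. Against stroma-like cells alone, germ-like DLK1 was 0.35 higher on the log2(level + 1) scale in baboon 1 and lower in the other 3 animals.

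Between the 2 largest somatic classes, Sertoli-like minus stroma-like, 9 of the 10 genes passed the filter in the baboon (not DIRAS3) and 8 in the rhesus monkey (neither DIRAS3 nor PEG10). In both species CDKN1C, NNAT and GRB10 passed it through the stroma-like sums, where they are high. That their differences stand below 0 is thus partly set by the filter. All genes that passed had a log2 difference below 0. In the baboon it ran from -6.29 ± 1.08 for CDKN1C, -5.83 ± 0.24 for DLK1, -5.71 ± 0.80 for NNAT and -5.24 ± 0.86 for GRB10 to -0.95 ± 0.27 for NDN, -0.94 ± 0.22 for PEG3 and -0.35 ± 0.41 for PEG10. The rhesus values ran from -4.35 ± 0.39 for DLK1 and -3.71 ± 0.95 for CDKN1C to -1.23 ± 1.00 for GRB10 and -1.19 ± 0.27 for NDN. The difference of baboon PEG10 was smaller than its SE. Over all genes tested, the median was 0.02 for baboons and -0.02 for rhesus monkeys, and the share below 0 is not given here. Rhesus DIRAS3, left out by the filter, was higher in Sertoli-like cells (0.903 and 0.585 CPM, 8 UMIs) than in stroma-like cells (0.304 and 0.221 CPM, 6 UMIs). Baboon DIRAS3 ranges overlapped between these classes.

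**Figure D5:**
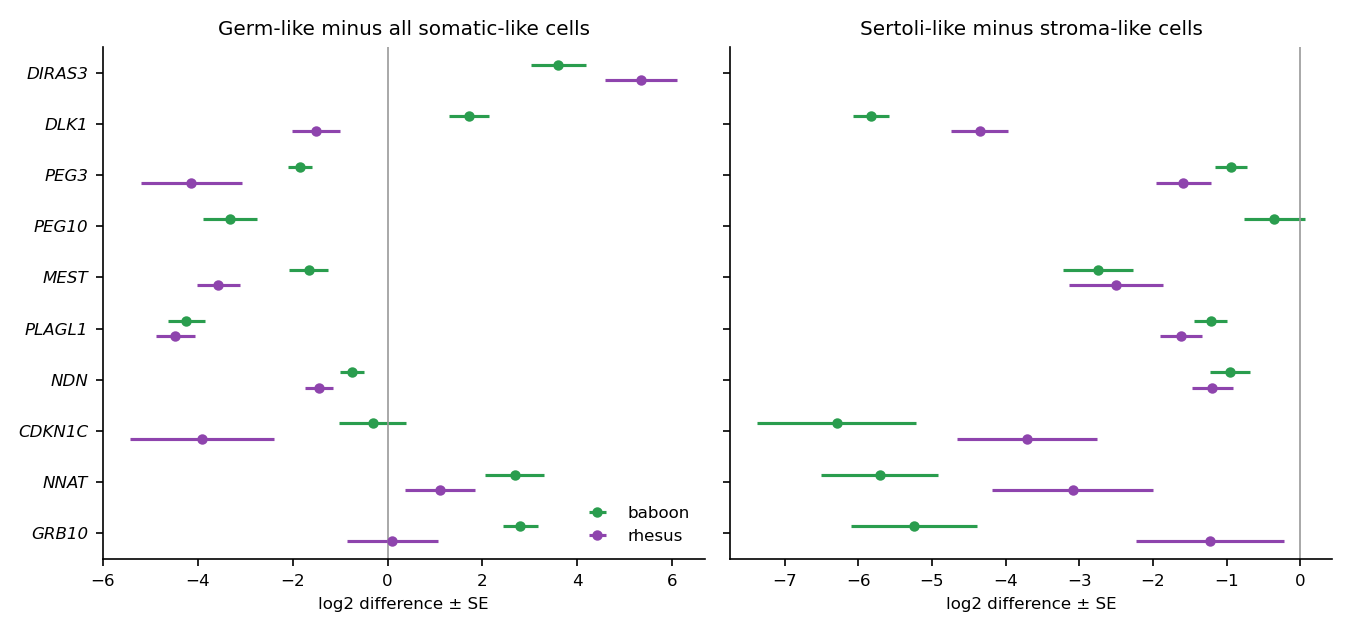
Log2 difference with its SE from the fit over all genes, for germ-like minus somatic-like cells (left) and Sertoli-like minus stroma-like cells (right), baboon and rhesus monkey. In the left panel DLK1 is at 1.71 (baboon) and -1.51 (rhesus monkey), and in the right panel every point drawn is below 0. Genes left out by the filter, DIRAS3 in the right panel and rhesus PEG10 in both panels, have no point. In the left panel DIRAS3 and baboon NNAT passed the filter through the germ-like sums, and rhesus PEG3 and CDKN1C through the somatic-like sums. In the right panel CDKN1C, NNAT and GRB10 passed it through the stroma-like sums.

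The other imprinted genes, a list of 45 of which 36 baboon and 30 rhesus genes were found, were tested in the same fits. Between germ-like and somatic-like cells, 28 passed the filter in the baboon, of which 11 were higher and 3 lower in germ-like cells at an adjusted p of at most 0.05. Of all genes tested, 20.6% were higher and 19.9% lower. Among rhesus genes, 5 of 22 were higher and 2 lower, beside 16.0% and 16.5% of all genes. The median log2 difference of the list was 0.30 for baboons and 0.17 for rhesus monkeys, beside -0.15 and -0.13 over all genes. Several of the genes passed the filter through the germ-like sums where they are high. Among them were DLX5, NLRP2 and PHLDA2, and KCNK9, USP29, TFPI2, ATP10A and TP73 in the baboon. Their calls as higher are thus partly set by the filter, and they enter the counts and the median of the list. The same filter was applied to all genes. With the animal as a block, 11 rather than 7 of the 22 rhesus genes were called (6 higher, 5 lower), and 6 rather than 3 of the baboon genes were lower.

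The homeobox gene DLX5 was called higher in both species, at 75.6 and 78.3 CPM in baboon germ-like cells against 0.610 and 0.901 in somatic-like cells, and at 46.7 and 25.2 against 0.509 and 0.383 in the rhesus monkey. NLRP2, a maternal-effect gene of the NLR family, stood at 18.9 and 24.1 against 0.763 and 0.477 in the baboon and at 28.0 and 16.8 against 0.636 and 0 in the rhesus monkey. PHLDA2, a growth-restraining gene of the placenta, was at 25.9 and 28.3 against 0.102 and 0.477, and at 15.6 and 6.31 against 0.127 and 0.170. FAM50B was at 92.5 and 102 against 10.3 and 9.09, and at 108 and 79.9 against 21.5 and 10.0. In the baboon KCNK9 (6.97 and 9.99 against 0 and 0.027), USP29 (6.97 and 23.3 against 0 and 0.053), TFPI2, ATP10A and TP73 were higher as well. Genes of this list named above as passing the filter through the germ-like sums are given here for their levels. The phosphatase gene INPP5F was higher in germ-like cells of both species, by 1.42 ± 0.38 on the log2 scale in baboons and 1.56 ± 0.36 in rhesus monkeys.

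SGCE, the epsilon-sarcoglycan gene next to PEG10, was lower in germ-like cells, at 20.9 and 35.0 CPM against 190.4 and 192 in the baboon and 17.6 and 8.41 against 175 and 133 in the rhesus monkey. IGF2, the fetal growth factor, was lower too, by 2.47 ± 0.45 on the log2 scale in the baboon (adjusted p = 0.0059, edgeR) and by 4.86 ± 0.42 in the rhesus monkey. Its levels were 66.7 and 79.1 against 162 and 426 CPM in the baboon and 326 and 229 against 5682 and 7435 in the rhesus monkey. SNRPN, a splicing-factor gene of the Prader-Willi region, was lower in the baboon, by 1.23 ± 0.35 on the log2 scale, and did not pass the test in the rhesus monkey, at -0.62 ± 0.27. H19 and MEG3 were not found by symbol.

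Between Sertoli-like and stroma-like cells, 0 of 21 baboon genes were higher and 2 lower in Sertoli-like cells, beside 3.98% and 9.82% of all genes. In the rhesus monkey 2 of 19 were higher and 2 lower, beside 5.75% and 6.97%. With the animal as a block the calls rose to 9 of 21 and 9 of 19, and those over all genes to 6532 in the baboon (2024 without the block) and 4338 in the rhesus monkey (1489 without). The list's median was -0.20 and 0.00, beside 0.02 and -0.02 over all genes. IGF2 was lower in Sertoli-like cells in both species, at 5.72 and 15.5 against 1104 and 1694 CPM in the baboon and 362 and 605 against 8727 and 10408 in the rhesus monkey. The thyroid hormone deiodinase gene DIO3 was lower in the baboon, at 0 and 0.364 against 21.1 and 45.5. DIO3 passed the filter through the stroma-like sums where it is high, so its call as lower is partly set by the filter. In the rhesus monkey PPP1R9A and SLC22A18 were higher and OSBPL5 lower. SNRPN did not pass the test, at 1.06 ± 0.26 and 1.05 ± 0.32 on the log2 scale.

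Genes whose level followed that of one of the 10 across the class sums of the animals were ranked by Pearson's r of log2(level + 10). The ranking used 17 sums and 11301 genes in the baboon and 16 sums and 9828 genes in the rhesus monkey. The sums share animals and classes, so r is a description. The first gene was SOX17 for baboon GRB10 (r = 0.979), CHPT1 for baboon DLK1 (r = 0.925) and CTHRC1 for rhesus GRB10 (r = 0.960). After these came CHST15 and SLC39A8, PLEKHA5 and DPYSL4, and KIT and AFAP1L1. For MEST the first was TET1 (baboon) and UFL1 (rhesus monkey), and for PLAGL1 it was GPX8 and SQSTM1. DIRAS3 in both species, NNAT in the baboon and PEG10 in the rhesus monkey had fewer than 100 UMIs and were not ranked. Among the 10 genes themselves, PEG3 went with PEG10 in the baboon (r = 0.847) and with NDN in the rhesus monkey (r = 0.871), and GRB10 ran against PEG10 in the baboon (r = -0.594).

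In the RefSeq annotation of Mmul_10, DIRAS3 lies on chromosome 1 from 156371159 to 156375838, DLK1 on chromosome 7 from 162943302 to 162951728, and GRB10 on chromosome 3 from 64496981 to 64700110. PEG10 (111465570 to 111468349) and MEST (156786393 to 156807236) lie on chromosome 3 as well, and NDN (5258138 to 5260058) lies on chromosome 7. In that of Panubis1.0, DIRAS3 lies on chromosome 1 from 66442381 to 66448392, DLK1 on chromosome 7 from 5818972 to 5827218, and GRB10 on chromosome 4 from 120369828 to 120573373. The rhesus genes were counted under Ensembl identifiers, so the RefSeq intervals of Mmul_10 may differ from the gene models that were counted.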

How the data were processed

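Gene expression was measured in 6 libraries of testis cells from 2 baboons and 2 rhesus monkeys. The authors aligned reads to Panubis1.0 or Mmul_10 with Cell Ranger 3.1.0, and the deposited counts of UMIs, whole numbers without normalization, cover every barcode. Library totals ran from 16875294 to 49803025 UMIs.

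Cells were called with a UMI cutoff and then by profile against free RNA (barcodes of rank 45001 to 90000, at least 500 UMIs, adjusted p of at most 0.01), and those with at least 200 genes were kept. Libraries of a species shared 1 to 124 cell barcodes. A cell took the class whose list had the most markers with a UMI, at least 3 and more than any other list. Only the lists were fixed beforehand, and the rule was set after marker counts had been seen. Among germ-like cells 91 of 443 rested on 3 markers, as did 5082 of 12043 Sertoli-like ones. The study's clustering in Seurat was not rebuilt. Likely doublets were marked and kept. Libraries of an animal were summed.

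Sums per animal (2 a side) were fitted with edgeR 4.0.16 (quasi-likelihood, TMM, low-count filter, Benjamini-Hochberg adjustment, threshold 0.05). CPM were computed from the counts. The same animal gave both sums, and the deviations of its sums correlated (r = 0.598 and 0.790 for baboons, 0.268 and 0.468 for rhesus monkeys), so a fit with the animal as block was an alternative. The methods were tested on simulated data. Python 3.11.15, scanpy 1.11.5 and R 4.3.3 were used.

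The genes and the lists were chosen with earlier results of these data known. Named were all 10 genes, up to 10 called genes of the other imprinted list per comparison by size, with IGF2, SNRPN, H19 and MEG3, and for each gene with at least 100 UMIs the 3 genes most like it. Of the last, the report gives those of GRB10 and of baboon DLK1 and the first of MEST and PLAGL1; the rest are not reported here. Alternatives were DESeq2 1.42.0, no filter, other class rules, cell calls and depths, free RNA subtraction, and leaving out each library. Nothing in the labels shows separate cultures beyond the animals, and intervals cover counting error only.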

Additional observations from a re-analysis of the deposited data

Results flagged for a closer look

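DLK1 moved in opposite directions in the 2 species when germ-like cells were set against all somatic-like cells. On the log2(CPM + 1) scale the difference was 3.08 in baboon 1 and 1.18 in baboon 2. It was -0.53 in rhesus 1 and -2.35 in rhesus 2. DLK1 was picked out from the genes described here because its direction differed between the species. That the animals of a species moved the same way is thus set by this choice and is no separate result. The difference between the species was not tested. Stroma-like cells, where DLK1 is high, held 13.2% and 23.7% of the somatic-like UMIs in the baboons and 62.8% and 57.6% in the rhesus monkeys, and the part of this makeup in the difference was not tested.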

How the results depend on the processing

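The 36 log2 differences of the 10 genes had 393 values under an alternative. Of these, 367 kept their direction and moved by no more than the SE of the main fit, 20 moved further and 6 turned in direction. CDKN1C (germ-like minus somatic-like, baboon) was at 0.041 with each library its own sample and 1.37 with the UMI cutoff alone. GRB10 (rhesus) was at -0.13 without a filter, -0.18 with each library its own sample, -0.10 with 1 more marker required, and between -0.054 and 0.20 without 2B or 2A.

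Genes called between Sertoli-like and stroma-like cells in the baboon numbered 2024, and were 3542 without a filter, 6532 with the animal as replicate block, 4080 with each library its own sample, 216 with the UMI cutoff alone and 3058 without likely doublets. The other imprinted genes called there numbered 2, and were 5, 9, 6, 1 and 4 in that order. In the rhesus monkey 1489 genes were called, and 2275 with DESeq2, 2289 without a filter, 4338 with the block and 4400 with each library its own sample. The other imprinted genes called went from 4 to 9 with the block and 10 with each library its own sample. Between germ-like and somatic-like rhesus cells they went from 7 to 11 with the block. The cause was not tested. In the baboon, the block took the other imprinted genes lower in germ-like cells from 3 to 6 and all genes lower there from 3252 to 5092. It moved neither the totals of that comparison nor the counts over all genes of the rhesus one by more than 1.5 times.

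Baboon stroma-like DLK1 (272 CPM) was 253.8 with classes from clusters, 200.6 with the UMI cutoff alone, 333 without likely doublets and 279.9 after free RNA was subtracted. At 500 in place of 1000 UMIs per cell, the mean share of stroma-like cells with a DLK1 UMI fell from 18.4% to 11.2% in the baboon and from 38.8% to 24.5% in the rhesus monkey, as fewer UMIs were drawn. Leaving out baboon 2 or rhesus 1 leaves 1 animal and no test. Classes of few cells, and DIRAS3 and NNAT with at most 18 germ-like UMIs per animal, limit the depth.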
